A study of Mus musculus with 6 samples.

Results

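The guanylate-binding proteins (GBPs) are large GTPases of the dynamin superfamily that interferon induces in many cell types. They bind to the membranes of vacuoles and bacteria inside the cell, open them to other defence proteins and promote inflammasome activation. Several members carry a prenyl group at their carboxy end that anchors them in membranes, and their loading onto vacuoles depends on the immunity-related GTPases (IRGs) and on the ATG8 conjugation system. In mice the genes lie in a cluster on chromosome 3 and another on chromosome 5, and IRF1 is among the transcription factors through which IFN-γ reaches them. The 10 genes examined were taken by gene family and position, with earlier results of these data known, as *Gbp2*, *Gbp2b*, *Gbp3* and *Gbp7* of the chromosome 3 cluster and *Gbp4*, *Gbp6*, *Gbp8*, *Gbp9*, *Gbp10* and *Gm43302* of the chromosome 5 cluster. Of these, 8 had a row of their own among the 41388 genes of the table, and all 8 were among the 11379 genes tested. *Gbp6* and *Gbp10* matched no row by identifier and were not analysed here.

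RNA-Seq compared 3 WT and 3 *Irf1*-/- cultures of T cells from C57BL/6 mice. All 6 were grown for 2 days towards the Th9 fate, the IL-9-producing T helper subset, with IL-2, IL-4, TGF-β and IFN-γ, so that IFN-γ was present in both genotypes and no culture without it entered the comparison. The question was which of these genes depended on IRF1 when IFN-γ was given. The unit was the normalized count, that is reads on a gene divided by the size factor of the library, and the libraries held between 5639788 and 13348230 reads on genes. The study describes the samples as biologically independent, and the labels do not tie them to single mice, so that p-values measure the spread between these libraries. *Irf1* itself had normalized counts of 2968, 2907 and 2660 in WT and of 1780, 1729 and 1476 in *Irf1*-/- libraries. The groups did not overlap, and reads on the targeted gene were lower but present in all libraries labelled *Irf1*-/-. Which part of the gene the allele lacks was not given in the sources used here. The 4 Y-linked genes examined had normalized counts of 192 to 939 in WT replicates 1 and 2 and no more than 4.16 in any other library. For *Xist* the values were 2.50 and 6.01 in WT replicates 1 and 2 and between 16973 and 19403 elsewhere.

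The labelled cell type was checked against marker genes. All 8 T-cell markers were detected, with a summed normalized count of 15794 to 16538 in WT and 15369 to 15780 in *Irf1*-/- libraries, ranges that did not overlap. Of these 8 markers 1 was called lower, against 12.4% of all genes tested. This was *Cd3e*, with a log2 fold change of -0.30 (limma adjusted p = 0.00535). The 6 B-cell markers summed to between 18.7 and 27.7 in WT and between 35.1 and 43.0 in *Irf1*-/- libraries, with *Pax5* at 0 in all libraries. Both CD8 genes together reached 32.4 to 41.2 in WT and 20.3 to 30.7 in *Irf1*-/- libraries. Of the 4 NK-cell markers, *Ncr1*, *Klrb1c* and *Klra8* were at 0 throughout, and *Eomes*, which T cells also express, made up the whole sum of 33.7 to 51.0 in WT and 5.55 to 20.5 in *Irf1*-/- libraries. The 9 myeloid markers ranged from 54.9 to 182 in WT, and reached 239 and 1043 in *Irf1*-/- replicates 1 and 2 but 44.7 in replicate 3. In these bulk libraries, fewer cells expressing a gene and less RNA per cell cannot be told apart.

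The sequences in front of the chromosome 3 genes are shown first, since IRF proteins recognise the interferon-stimulated response element (ISRE) and the whole comparison is one of an IRF. RefSeq promoter windows on GRCm38.p6, 300 bases from 250 before to 50 after the transcription start, were matched for 4 genes. The letters AANNGAAA, the core of an ISRE, and TTCNNNGAA, the palindrome of the gamma-activated site (GAS), were searched on both strands. A stricter ISRE was defined as AANNGAAA directly preceded by GA, and its matches are thus a subset of those of the shorter form. In the following 4 windows, all on the + strand, capitals mark the matches to the ISRE letters, stretched to the stricter form where present.
*Gbp2*, chr3:142620413-142620712: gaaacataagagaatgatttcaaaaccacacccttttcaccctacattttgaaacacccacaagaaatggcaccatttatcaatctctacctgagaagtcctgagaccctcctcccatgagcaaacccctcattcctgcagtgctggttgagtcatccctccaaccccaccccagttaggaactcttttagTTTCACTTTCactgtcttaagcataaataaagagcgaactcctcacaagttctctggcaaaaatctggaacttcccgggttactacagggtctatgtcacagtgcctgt
*Gbp2b*, chr3:142594597-142594896: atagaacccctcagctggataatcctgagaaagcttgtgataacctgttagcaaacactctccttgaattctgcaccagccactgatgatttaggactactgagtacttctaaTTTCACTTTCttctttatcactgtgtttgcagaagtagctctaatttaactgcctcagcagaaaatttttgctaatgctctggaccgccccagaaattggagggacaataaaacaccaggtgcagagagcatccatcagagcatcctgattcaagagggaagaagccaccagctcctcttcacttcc
*Gbp3*, chr3:142559794-142560093: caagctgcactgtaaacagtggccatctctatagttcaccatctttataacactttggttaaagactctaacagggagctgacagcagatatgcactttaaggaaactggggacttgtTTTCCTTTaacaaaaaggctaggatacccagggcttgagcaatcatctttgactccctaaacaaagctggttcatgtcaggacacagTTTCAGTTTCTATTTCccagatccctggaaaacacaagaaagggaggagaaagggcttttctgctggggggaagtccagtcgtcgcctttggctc
*Gbp7*, chr3:142530086-142530385: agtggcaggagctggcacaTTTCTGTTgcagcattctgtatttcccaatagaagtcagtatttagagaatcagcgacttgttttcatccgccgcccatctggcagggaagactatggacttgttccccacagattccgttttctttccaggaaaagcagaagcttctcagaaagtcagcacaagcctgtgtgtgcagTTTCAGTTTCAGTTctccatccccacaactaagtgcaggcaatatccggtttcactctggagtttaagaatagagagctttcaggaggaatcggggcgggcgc

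Every ISRE match lay on the - strand and thus reads as TTTC on the strand printed. *Gbp2* and *Gbp2b* each had 1 match, and the same letters, TTTCACTTTC, occurred at positions -59 to -50 in *Gbp2* and at positions -137 to -128 in *Gbp2b*. *Gbp3* had 3 matches, of which those starting at -45 and -39 overlapped and both had the stricter form. A second RefSeq window of *Gbp3*, at chr3:142560106-142560405, had 0. *Gbp7* also had 3 matches. An overlapping pair began at -53 and -47, the former in the stricter form, and a further match lay at -231 to -224. The GAS letters were found in *Gbp7* alone, at -106 to -98 and at -87 to -79. Of all 32851 promoter windows, 23.9% held AANNGAAA at least once, 5.34% held it at least 2 times, 3.44% held the stricter form and 8.30% held TTCNNNGAA. A match of letters describes the window and does not show that a factor binds there.

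All 8 genes were called lower in *Irf1*-/- cells, at adjusted p-values from 6.00e-08 to 3.07e-04 (limma with Benjamini-Hochberg adjustment over all genes tested). Among all genes tested, 1406 (12.4%) were called lower and 1293 (11.4%) higher by the same rule, numbers that were 826 and 799 without WT replicate 2. The median log2 fold change was -2.97 over the 8 genes and -0.0037 over all genes tested. In all 8, the lowest WT library lay above the highest *Irf1*-/- library, a separation in this direction that was seen in 20.9% of all genes tested. The gap between these neighbouring libraries ranged from 2.89-fold in *Gbp8* to 20.0-fold in *Gbp2*. Ranked by log2 fold change among the 11379 genes, the 8 decreases lay between rank 7 for *Gbp2* and rank 42 for *Gbp8*. An exact permutation test of each gene by itself gave p = 0.1, the smallest value that 3 against 3 libraries allow.

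**Figure D1:**
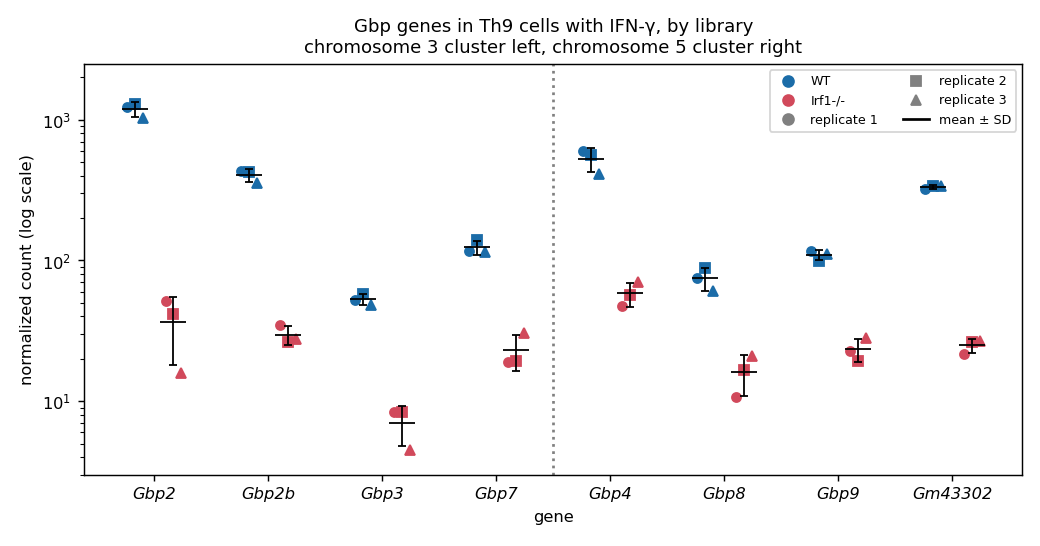
Normalized counts on a log axis of the 8 *Gbp* genes in each library, with WT in blue and *Irf1*-/- in red, symbols for the replicate number and bars for mean ± SD (n = 3). For every gene the WT libraries lie above the *Irf1*-/- libraries, and *Gbp2* of *Irf1*-/- replicate 3, at 16.0, lies apart from 51.3 and 41.6 in replicates 1 and 2.

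Of the 4 genes examined in the chromosome 3 cluster, *Gbp2* was the most abundant in WT cells and lost the largest share of its reads. *Gbp2* (ENSMUSG00000028270), which codes for a prenylated GBP that coats the vacuole of *Toxoplasma*, lies on GRCm38 chromosome 3 from 142620602 to 142638008 on the + strand. Its normalized counts were 1233, 1303 and 1027 in WT and 51.3, 41.6 and 16.0 in *Irf1*-/- libraries. The WT mean of 1188 ± 144 compared with 36.3 ± 18.3 without IRF1 (SD, n = 3 each), so that 3.06% of the WT level remained, a 32.7-fold difference. The log2 fold change was -5.14 (standard error 0.325, limma adjusted p = 4.10e-06). The single low library, *Irf1*-/- replicate 3, set part of this size. Its 25 reads on *Gbp2* came from a library of 12423511 reads, and without this library the log2 fold change was -4.65. The groups stayed apart in either case.

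*Gbp2b* (ENSMUSG00000040264), long known as the gene of GBP1, lies next to *Gbp2* on the same strand, from 142594847 to 142619179. Its normalized counts were 434, 427 and 355 in WT and 34.6, 26.3 and 27.5 in *Irf1*-/- libraries. Means of 405 ± 43.6 (SD, n = 3) and 29.5 ± 4.49 (SD, n = 3) gave a log2 fold change of -3.74 (standard error 0.143, limma adjusted p = 8.09e-08), and 7.27% of the WT level remained. Here the *Irf1*-/- libraries lay close together, with none set apart.

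*Gbp7* (ENSMUSG00000040253), whose product takes part in assembling the phagocyte NADPH oxidase on vacuoles, occupies 142530342 to 142550149 at the other end of the 4 genes examined. It had normalized counts of 116, 141 and 115 in WT and of 19.1, 19.4 and 30.7 in *Irf1*-/- libraries. It fell by 2.40 on the log2 scale (standard error 0.208, limma adjusted p = 3.63e-05), from 124 ± 14.5 to 23.1 ± 6.59 (SD, n = 3 each), and kept 18.6% of its WT level. In contrast to *Gbp2*, *Gbp7* was highest in replicate 3 of the *Irf1*-/- libraries. An overlapping gene, *Gm43802*, covers 11.3% of the exon bases of *Gbp7*, and how reads there were assigned was not given in the sources used here.

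*Gbp3* (ENSMUSG00000028268), from 142560026 to 142573209, was the least abundant of the 4 genes. Normalized counts of 52.4, 57.7 and 48.6 in WT stood against 8.36, 8.32 and 4.47 in *Irf1*-/- libraries, which were only 7, 6 and 7 reads. The log2 fold change was -2.78 (standard error 0.288, limma adjusted p = 1.14e-04), and 13.3% of the WT level remained. With so few reads the size of the fold change depended on the number added before taking logs. Adding 10 instead of 1 brought it to -1.89, whereas edgeR on the recovered reads gave -2.98.

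Along the chromosome, the 4 genes follow each other in the order *Gbp7*, *Gbp3*, *Gbp2b* and *Gbp2*, and their log2 fold changes, -2.40, -2.78, -3.74 and -5.14, had the same order. The order of *Gbp7* and *Gbp3* was not stable, since it turned without *Irf1*-/- replicate 3 (-2.62 and -2.53), within replicates 1 and 2 (-2.67 and -2.58) and with 10 added before taking logs (-2.03 and -1.89). The median of the cluster was -3.26. Summed over the cluster, these 4 genes took 220 ± 28.5 RPM, scaled to the reads on genes (n = 3, range 188 to 243), in WT libraries, as against 12.2 ± 2.25 RPM (n = 3, range 9.90 to 14.4) without IRF1 (errors are SD). The sum of normalized counts dropped to 5.42% of the WT level.

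In the chromosome 5 cluster, *Gbp4* and *Gm43302* were the abundant members and fell most. *Gbp4* (ENSMUSG00000079363), from 105115767 to 105139586 on the - strand of chromosome 5, had normalized counts of 604, 563 and 414 in WT and of 47.8, 56.9 and 70.3 in *Irf1*-/- libraries. Means of 527 ± 99.8 (SD, n = 3) and 58.3 ± 11.3 (SD, n = 3) gave a log2 fold change of -3.15 (standard error 0.168, limma adjusted p = 1.25e-06), and 11.1% of the WT level remained. Replicate 3 was the lowest of the WT and the highest of the *Irf1*-/- libraries, and the groups did not overlap. Within replicates 1 and 2 the log2 fold change was -3.46, and between the 2 libraries of replicate 3 it was -2.54. This split was chosen after seeing the data. WT replicates 1 and 2 were also the libraries with high Y-linked counts, so that replicate number and Y-linked level cannot be told apart here.

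*Gm43302* (ENSMUSG00000079362), a predicted GBP gene annotated as protein coding, spans 105214907 to 105293695 on the - strand, and both *Gbp10* (105215699 to 105239533) and *Gbp6* (105270702 to 105293698) lie within this span or at its edge. It had the most even values of all 8 genes, 322, 337 and 339 in WT and 21.5, 26.3 and 26.8 in *Irf1*-/- libraries. The WT mean of 332 ± 9.11 compared with 24.9 ± 2.96 without IRF1 (SD, n = 3 each), with a log2 fold change of -3.69 (standard error 0.134, limma adjusted p = 6.00e-08). By the GENCODE annotation of GRCm38, 81.6% of its exon bases also belong to exons of *Gbp6* or *Gbp10*. Of the 50-base stretches of its transcripts, 93.0% also occur in *Gbp6* and 64.7% in *Gbp10*, and the share found in *Gm43302* alone is 0%. The authors counted reads on an older Ensembl annotation, which was not used here, so that the exons behind this row may differ. The value of this row may include reads from *Gbp6* and *Gbp10* and cannot be divided among the 3 genes.

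*Gbp9* (ENSMUSG00000029298) and *Gbp8* (ENSMUSG00000034438), from 105077630 to 105139539 and from 105014150 to 105139540 on the - strand, share the region of their starts with *Gbp4*. The exons of the 3 genes overlap by 60 to 61 bases there, and 92.0% of the 50-base stretches of *Gbp9* and 81.9% of those of *Gbp8* occur in no other gene. *Gbp9* had normalized counts of 117, 99.8 and 111 in WT and of 22.7, 19.4 and 28.1 in *Irf1*-/- libraries. *Gbp8* had 74.9, 89.0 and 60.9 in WT and 10.7, 16.6 and 21.1 in *Irf1*-/- libraries. Both decreased by nearly the same amount, with log2 fold changes of -2.19 (standard error 0.184, limma adjusted p = 3.07e-05) for *Gbp9* and -2.18 (standard error 0.264, limma adjusted p = 3.07e-04) for *Gbp8*. Of the WT level, 21.4% and 21.6% remained, the largest shares among the 8 genes. By the same split, chosen after seeing the data, *Gbp8* had a log2 fold change of -2.52 within replicates 1 and 2. Between the libraries of replicate 3 it was -1.49. *Gbp2* differed the other way, with -4.75 and -5.92. Replicate 3 is a single library of each genotype and gives no spread, and the split again follows the Y-linked level of the WT libraries.

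**Figure D2:**
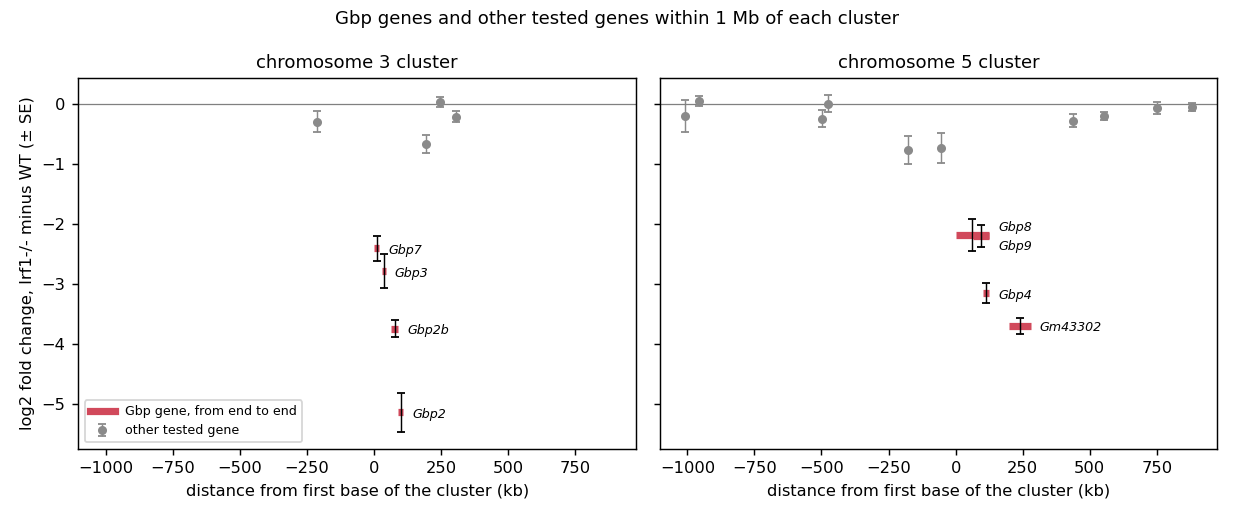
Log2 fold changes (*Irf1*-/- minus WT, bars are standard errors) against the distance in kb from the first base of each cluster, with *Gbp* genes drawn in red from end to end and other tested genes within 1 Mb in grey. All 8 *Gbp* genes lie below -2, and the other tested genes lie between -0.76 and 0.05.

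The median of the chromosome 5 cluster was -2.67. Its 4 measured genes took 130 ± 15.1 RPM (SD, n = 3, range 113 to 140) in WT libraries, as against 15.6 ± 2.71 RPM (SD, n = 3, range 13.0 to 18.4) without IRF1, and 11.8% of the WT sum of normalized counts remained. In WT, the chromosome 3 sum was 1.64, 1.77 and 1.67 times the chromosome 5 sum. In *Irf1*-/- libraries the ratios were 1.10, 0.802 and 0.537. The chromosome 3 cluster thus exceeded the chromosome 5 cluster in all 3 WT libraries and in 1 of the 3 *Irf1*-/- libraries.

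In these libraries the genes of a cluster differed in the size of their decrease. The log2 ratio of each gene to the most abundant member of its cluster was computed in every library, giving 6 ratios. The ratio of *Gbp7* to *Gbp2* was -3.40, -3.20 and -3.15 in WT and -1.38, -1.06 and 0.90 in *Irf1*-/- libraries, a mean difference of 2.74. In *Irf1*-/- replicate 3 alone, *Gbp7* exceeded *Gbp2*, and without this library the difference was 2.03. The ratio of *Gbp3* to *Gbp2* was higher by 2.36 and that of *Gbp2b* to *Gbp2* by 1.40 in *Irf1*-/- than in WT cells. In the chromosome 5 cluster, the ratios of *Gbp8* and *Gbp9* to *Gbp4* were higher by 0.98 and 0.96, and that of *Gm43302* to *Gbp4* was lower, with a difference of -0.54. For all 6 ratios the groups did not overlap, and the two-sided exact permutation test gave the smallest possible p = 0.1, also after Benjamini-Hochberg adjustment over the 6 ratios. With 3 libraries a group, this test cannot reach 0.05. The ratios of a cluster share the same denominator, *Gbp2* or *Gbp4*, so that they are not independent of each other. How often ratios of other genes separate the groups was not computed. With 10 added before taking logs, the difference of *Gm43302* to *Gbp4* was -0.33 (exact permutation p = 0.3).

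**Figure D3:**
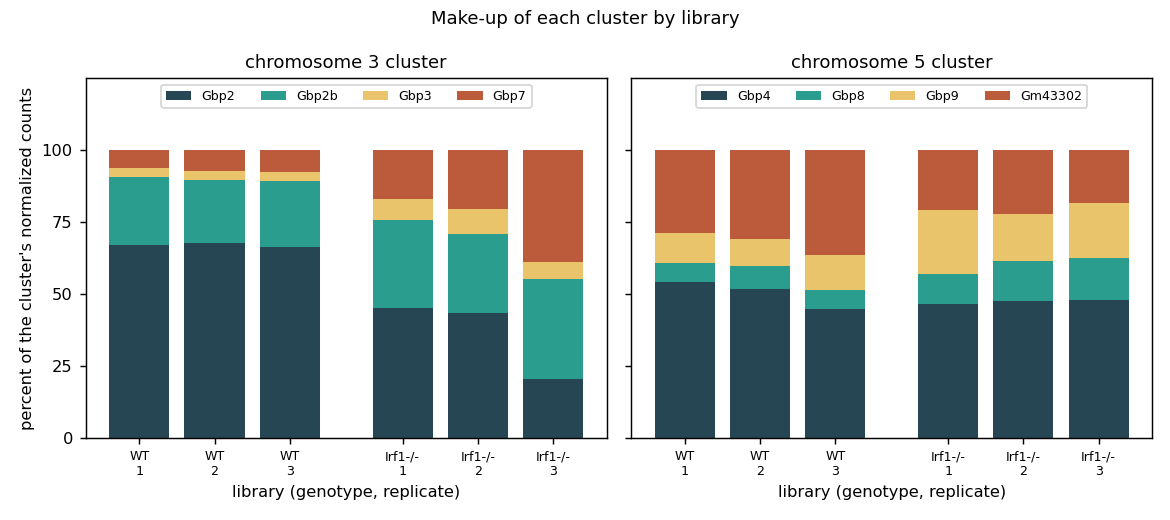
Percent of the summed normalized counts of each cluster that each measured gene contributed, in the 6 libraries. *Gbp2* makes up 66.4% to 67.6% of the chromosome 3 sum in WT and 20.3% to 45.3% in *Irf1*-/- libraries, while *Gbp4* makes up 44.8% to 54.0% and 46.5% to 48.0% of the chromosome 5 sum.

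The make-up of the clusters changed accordingly. *Gbp2* accounted for 67.1% ± 0.584 (SD, n = 3) of the chromosome 3 sum in WT and for 36.4% ± 13.9 in *Irf1*-/- libraries. Its share was 45.3%, 43.5% and 20.3% in *Irf1*-/- replicates 1, 2 and 3, so that replicate 3 stood apart here too. The share of *Gbp7* was 7.02% ± 0.607 in WT and 25.4% ± 11.9 in *Irf1*-/- libraries, where it reached 39.0% in replicate 3. In the chromosome 5 sum, *Gm43302* went from 32.1% ± 4.04 to 20.5% ± 1.92 and *Gbp9* from 10.6% ± 1.43 to 19.2% ± 2.91, whereas the share of *Gbp4* was 50.2% ± 4.81 and 47.4% ± 0.796.

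To compare levels between genes, normalized counts were divided by the exon length in kb. The lengths came from a later annotation than the one used for counting, so that the value and rank of *Gm43302* in particular are uncertain. In WT cells *Gbp2* led with 472 ± 57.2 (SD, n = 3) per kb, followed by *Gbp2b* with 144 ± 15.4. *Gm43302* and *Gbp4* came next, at 77.1 ± 2.11 and 70.3 ± 13.3 per kb, and their ranges overlapped. *Gbp7*, *Gbp8* and *Gbp9* lay together at 22.1, 21.8 and 21.2 per kb with overlapping ranges, and *Gbp3* was lowest at 16.2 ± 1.41. In *Irf1*-/- cells the spread between genes was much smaller. *Gbp2* had 14.4 ± 7.26 and *Gbp2b* 10.4 ± 1.59 per kb, and both overlapped with *Gbp4* at 7.78 ± 1.51. *Gm43302*, *Gbp8*, *Gbp9* and *Gbp7* followed with 5.78, 4.69, 4.52 and 4.11 per kb, again with overlapping ranges, and *Gbp3* at 2.16 ± 0.684 stayed below all others.

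**Figure D4:**
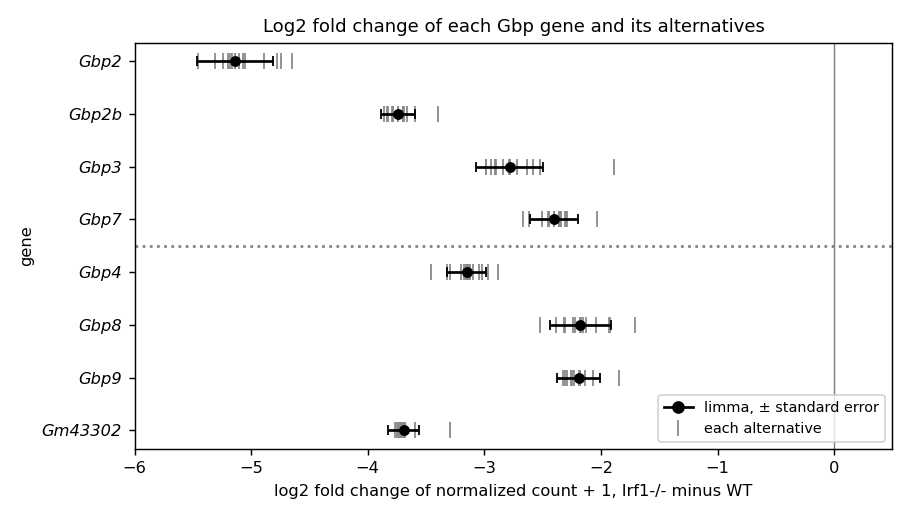
Log2 fold change (*Irf1*-/- minus WT) of each *Gbp* gene from limma with its standard error, and as grey ticks the values under each alternative processing, with the chromosome 3 genes above and the chromosome 5 genes below the dotted line. All ticks lie below 0, and for *Gbp3* the tick nearest to 0, at -1.89, is that with 10 added before taking logs.

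The measured decreases did not rest on a single library. Each of the 8 genes was called lower after leaving out any library in turn. Adjusted for the Y-linked level in the model, log2 fold changes ranged from -1.94 for *Gbp8* to -4.89 for *Gbp2*, and all 8 were called. Without *Irf1*-/- replicate 2, the library with the highest myeloid marker sum, all 8 genes were called as well.

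The genes around the GBPs were examined next. In IFN-γ signalling, 2 of 11 genes were called lower, against 12.4% of all genes, and 0 higher, with a median log2 fold change of 0.050. These were *Irf1*, with -0.78, and *Irf8*, a related IRF gene, with -0.35 (limma adjusted p = 0.0178). *Irf8* had normalized counts of 14732, 14250 and 13379 in WT and of 12148, 11885 and 9323 in *Irf1*-/- libraries, so that its groups did not overlap, but its log2 fold change was small beside those of the GBPs. The receptor genes *Ifngr1* and *Ifngr2* and the kinase genes *Jak1* and *Jak2* did not pass the test.

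The IRGs, which act together with the GBPs at vacuoles, were called lower for 10 of 13 genes and higher for 0, with a median log2 fold change of -1.54. *Iigp1* had normalized counts of 2103, 2145 and 2183 in WT libraries but 2, 2 and 5 reads in *Irf1*-/- libraries. *Gm12250* had 537, 486 and 558 in WT and 3, 4 and 6 reads in *Irf1*-/- libraries. *Gm4951* had 134, 117 and 149 in WT and 0, 1 and 2 reads in *Irf1*-/- libraries, at least 41.3-fold lower against a floor of 3 reads in each library. These 3 genes thus fell further than *Gbp2*, which kept at least 25 reads in each library. With genes at or under this floor set to their bound, the median of the list was again -1.54.

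In the ATG8 conjugation list, 0 of 12 genes were called lower and 4 higher, against 11.4% higher among all genes, with a median of 0.064. *Map1lc3a*, *Map1lc3b* and *Gabarapl1*, which code for ATG8 proteins, had log2 fold changes of 0.66, 0.42 and 0.29 (limma adjusted p = 0.0495, 0.00859 and 0.0323). The other gene was *Sqstm1*, a cargo receptor of autophagy, with 0.25, and it is named after its value was seen. Of 6 prenylation genes, 1 was called lower, against 12.4% of all genes, *Zmpste24*, a protease for prenylated proteins, with -0.25 (limma adjusted p = 0.0402). Of the 10 inflammasome genes 4 could be tested. *Gsdmd*, coding for the pore-forming gasdermin D, fell by 1.78 on the log2 scale (limma adjusted p = 0.00158), whereas *Aim2*, a sensor of DNA, rose by 0.62 (limma adjusted p = 3.06e-04). Of 14 other dynamin-like GTPase genes 8 were tested, and 1 was called higher, against 11.4% of all genes, *Dnm2* of endocytosis, with 0.19 (limma adjusted p = 0.0274). The GBPs and IRGs were thus called lower in 8 of 8 and 10 of 13 tested genes, against 12.4% of all genes.

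Of the other genes examined within 1 Mb, 4 of 13 could be tested around the chromosome 3 cluster and 10 of 30 around the chromosome 5 cluster. On chromosome 3, 1 of the 4 was called lower and on chromosome 5, 2 of the 10, against 12.4% of all genes tested. *Kyat3*, coding for a kynurenine aminotransferase and 63.0 kb from the cluster, averaged 98.5 in WT and 62.2 without IRF1, with a log2 fold change of -0.66 (limma adjusted p = 0.00836). On chromosome 5, *Zfp951* at 154 kb with -0.76 (limma adjusted p = 0.0396) and *Lrrc8c* at 226 kb with -0.20 (limma adjusted p = 0.0380) were called lower. None of the neighbours tested was called higher at an adjusted p below 0.05, and their log2 fold changes ranged from -0.76 to 0.05. The smallest decrease of a GBP gene, -2.18, was thus larger than that of any neighbour tested.

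Genes with a profile like that of the GBPs were sought among all other genes tested, by the root mean square distance over the 6 libraries between centred log2 profiles and the mean profile of the 8 GBP genes. Members themselves lay between 0.189 for *Gbp4* and 1.11 for *Gbp2* from this mean. The 5 nearest other genes were *Tgtp1* at 0.174, *Parp10* at 0.223, *Il12a* at 0.285, *Calhm6* at 0.289 and *Entpd1* at 0.300. *Tgtp1*, an IRG gene on chromosome 11, had normalized counts of 192, 196 and 169 in WT and of 22.7, 15.3 and 20.5 in *Irf1*-/- libraries. *Il12a*, coding for the p35 subunit of IL-12, had 446, 494 and 384 in WT and 37.0, 36.1 and 28.1 in *Irf1*-/- libraries. *Parp10*, an ADP-ribosyltransferase gene, went from 317 ± 41.5 to 45.6 ± 5.97, and *Entpd1*, coding for the ectoenzyme CD39, from 70.7 ± 10.4 to 8.34 ± 2.24 (SD, n = 3 each). *Calhm6*, with 29, 32 and 48 reads in WT libraries, had 2, 4 and 5 without IRF1.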

How the data were processed

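RNA-Seq of 3 WT and 3 *Irf1*-/- Th9 cultures was analysed from the deposited table. The authors aligned single-end reads to GRCm38 with STAR 2.4.0b and counted them on Ensembl genes with featureCounts. The deposited signal is the normalized count, the count of the authors divided by a DESeq2 size factor. All non-zero values (100%) were whole multiples of 1 read within a tolerance of 0.01, and 3 reads equalled a normalized count of 1.84 to 4.16. Strand use and the treatment of multi-mapping reads were not given in the sources used here.

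Genes with a mean of at least 10 were tested with limma 3.58.1 in R 4.3.3, by eBayes with trend on log2 of the normalized count plus 1, with a threshold of 0.05 after Benjamini-Hochberg adjustment. Alternatives were edgeR 4.0.16 and DESeq2 1.42.0 on recovered reads, other pseudocounts, filters and scalings, a covariate for Y-linked transcripts, a replicate block and each library left out. On simulated data with 200 of 11379 genes changed, limma recovered 94.5% with 10 calls among unchanged genes, and edgeR 94.0% with 15. Gene positions and shared 50-base stretches came from GENCODE M21 (GRCm38), and promoters from RefSeq (GRCm38.p6). The members and lists were chosen with earlier results of these data known. From each list and the genes within 1 Mb, called genes are named, at most the 3 with the largest change in each direction, and the 5 genes of most similar profile. ChIP-Seq libraries were not analysed here. Not every gene of the IFN-γ signalling list and of the clusters is reported here.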

Additional observations from a re-analysis of the deposited data

How the results depend on the processing

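All 8 *Gbp* genes were called lower under each of the 18 alternatives that could test them, with 142 values in all and 0 calls lost. *Gbp3* and *Gbp8* could not be tested with a mean of at least 50. The cluster medians of the log2 fold change moved with the settings. They were -2.71 on chromosome 3 and -2.41 on chromosome 5 with 10 added before taking logs, and -3.74 and -3.15 with a mean of at least 50, where 3 genes of each cluster remained. In replicates 1 and 2 only, an alternative chosen after seeing the data, the chromosome 5 median was -2.99. There, both WT libraries had high Y-linked counts and the *Irf1*-/- libraries hardly any.

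Without trend, 807 genes were called lower and 928 higher, whereas the main fit called more genes lower than higher. The Y-linked covariate left 1099 genes called lower and 856 higher. Leaving out a library gave 826 to 1472 genes lower and 799 to 1372 higher, with both lowest values without WT replicate 2. Without WT replicate 1 the numbers were 829 and 808, and without *Irf1*-/- replicate 2 they were 895 and 820. With the replicate block, 2116 genes were called lower and 1893 higher, and all 8 *Gbp* genes were among those lower. The replicate numbers were not used as pairs in the main fit. Same-numbered libraries correlated in their deviations with r = 0.092, 0.269 and 0.321, and every library correlated best with its own number. The standard error of *Gbp2* was 0.159 with the block and 0.325 without it. Whether same-numbered libraries shared a batch was not tested.

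By the stricter motif, *Gbp3* had 2 matches and *Gbp7* had 1. Depth limits the *Irf1*-/- level of *Gbp3*, which rests on 6 to 7 reads a library, and 3 libraries a genotype limit all permutation tests to p = 0.1.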

Other observations

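Several genes of GBP-associated defence were too low for the test and are given by their values alone. Of 12 such genes in the inflammasome and dynamin-like lists, 5 had lower values in *Irf1*-/- than in WT libraries without overlap, 0 had higher values without overlap and 7 overlapped. Of all 10204 genes under the same filter with any value above 0, 3.2% were lower without overlap. That share includes genes with very few reads, which can hardly separate the groups, and was not matched to the level of the 12 genes. Among the genes tested, which lie above the filter, the share was 20.9%. *Casp4*, coding for caspase-11, the sensor of cytosolic lipopolysaccharide, had normalized counts of 15.0, 14.4 and 12.3 in WT libraries and 2, 2 and 2 reads in *Irf1*-/- libraries, at least 4.32-fold lower against a floor of 3 reads in each library. *Casp1* had 16.2, 10.8 and 14.8 in WT libraries and 0, 2 and 2 reads in *Irf1*-/- libraries, at least 4.33-fold lower. *Gvin1*, an interferon-inducible very large GTPase gene, had 8, 6 and 17 reads in WT and 1, 0 and 2 in *Irf1*-/- libraries. *Mx2*, an antiviral dynamin-like GTPase gene, had 3, 8 and 6 reads in WT and 1, 0 and 1 in *Irf1*-/- libraries. *Dnm3*, the other gene without overlap, had 21.2, 8.42 and 4.92 in WT and 3.58, 4.16 and 3.20 in *Irf1*-/- libraries. Among those that overlapped, *Nlrp3* reached at most 2.50 in WT and 26.3 in *Irf1*-/- replicate 2, and *Nlrc4* lay between 1.84 and 3.74 in WT and between 1.28 and 4.16 in *Irf1*-/- libraries. All genes of this paragraph were named after their values were seen.

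The replicates of a genotype did not rank alike for all GBP genes. Of the 8 genes, 6 were lowest in replicate 3 among the WT libraries, the only WT library without reads on the Y-linked genes examined. Among the *Irf1*-/- libraries, 5 genes were highest in replicate 3 and 2, *Gbp2* and *Gbp3*, were lowest there.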
